A study of Mus musculus with 21 samples.

Results

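The late wound bed was compared with intact skin on 6 of the 21 arrays of a mouse wound series, namely the 3 arrays titled as wound bed of day 15 and the 3 titled as intact skin of day 0. All animals were females, 9 to 13 weeks old, of C57Bl/KS-db/+, a strain heterozygous for the leptin receptor mutation db. The controls carry it too. A full-thickness wound of 1.5 by 1.5 cm had been cut in the back, through the skin and the panniculus carnosus, the thin muscle sheet below it, and covered with a transparent dressing. The bed is the tissue that lay within the excised area 15 days later, and the control is shaved skin without a wound. The remaining 15 arrays, of the bed at days 2 and 6 and of the 2 mm wound edge at days 2, 6 and 15, entered the fit as estimates of the spread, and some of their values are given for comparison. The design names 3 animals per time point but ties no sample to an animal. Skin of the day of surgery is mentioned in the labels of the bed samples too, and their titles decided the group.

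A skin wound closes in overlapping stages. Blood-borne cells enter first, then a cell-rich granulation tissue of fibroblasts and new vessels fills the gap, and later the matrix is rebuilt into a scar while many of these cells disappear. Heparan sulfate, the sugar chain after which the series is titled, sits on proteins of the cell surface and the matrix, binds growth factors and cytokines, and can be cut by heparanase. In whole tissue, fewer cells of a type and less RNA per cell cannot be told apart.

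Each array carried 1687 probes in 8 spots each, beside 328 blank or empty spots. A probe was taken as measured on an array where its mean log2 signal exceeded the 95th percentile of these blank spots, and the test covered the 974 probes that 3 or more of the 21 arrays measured. The 3 day 15 bed arrays measured 934, 689 and 708 probes, and the 3 intact arrays 851, 541 and 696. The median spot signal was 2.43, 2.37 and 2.05 times the local background on the bed arrays and 1.93, 1.27 and 1.66 times on the intact arrays, so this ratio was higher on every bed array than on every intact array. The part of this difference in the results below was not tested. Only 3 of the 1687 probes could be paired with a gene, namely those of Hpse, Fbln1 and Ndst3, so the tissues could not be checked against marker genes. Catalogue identifiers are given for 4 of the others, the 2 rises and 2 falls of largest size whose groups did not overlap and whose brighter group measured them on all 3 arrays.

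After quantile normalization, transcripts of the late bed differed from intact skin in both directions and by similar sizes. Of the 974 tested probes 117, or 12.0%, were called at an adjusted p below 0.05 (limma, Benjamini-Hochberg), with 54 higher in the bed (5.54%) and 63 lower (6.47%). The median log2 difference of the higher probes was 1.58 and that of the lower ones -1.72, against 0.01 over all tested probes. The lower probes reached further, with 23 of 63 at least 2 log2 units below intact skin and 13 of 54 higher ones at least 2 above. Over all tested probes, 39 differed by at least 2 (4.0%) and 224 by at least 1 (23.0%), and 36 and 112 of these were called. The smallest difference called was 0.85. The probe nearest to the threshold on the called side had an adjusted p of 0.0498 and the nearest on the other side 0.0519.

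**Figure D1:**
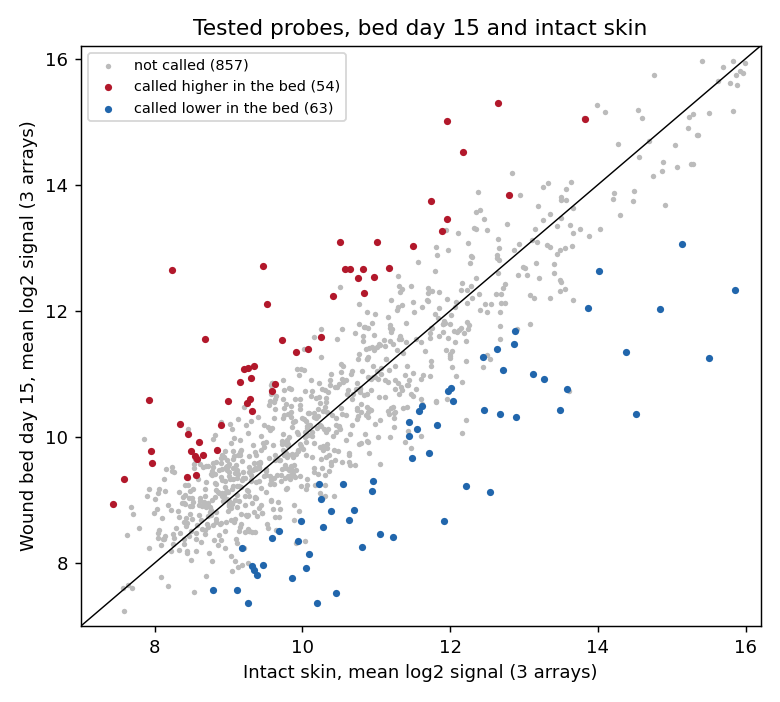
Mean log2 signal of each of the 974 tested probes in intact skin (x axis) and in the wound bed at day 15 (y axis), 3 arrays each, with the line of equal signal. The 54 probes called higher lie above the line and the 63 called lower lie below it, over the whole range of signal.

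In 111 of the 117 called probes the 3 bed arrays and the 3 intact arrays did not overlap, against 256 of all 974 (26.3%). Called probes were found at all levels of signal. Of the 244 dimmest tested probes 10.7% were called, 8 higher and 18 lower. Of the 244 brightest 14.3% were called, 15 higher and 20 lower.

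Some of the called probes were not above the blank spots on any array of 1 tissue. On the intact arrays this held for 13 of the 54 higher probes, against 120 of all 974 tested ones. On the bed arrays it held for 16 of the 63 lower probes, against 58 of all 974. Of the 13, 8 were above the blank spots on all 3 bed arrays, a pattern that 18 of all 974 showed. Of the 16, 5 were above them on all 3 intact arrays, and over all 974 the count with this pattern was also 5. For the 13 and the 16 a fold against the limit of the dimmer group is given. It is a lower bound only for the 8 and the 5, since in the others the brighter group too had unmeasured arrays. The brighter mean was divided by the dimmer group's limit, on each array the lowest measured signal or, if higher, the signal of the probe itself. This fold was above 1 for 10 of the 13 higher probes, from 1.15 to 9.67 (median 1.39). For 15 of the 16 lower ones it ran from 1.02 to 4.39 (median 1.51). A further 47 called probes, 22 higher and 25 lower, were measured on all 6 arrays, against 438 of all 974.

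Probe M200000353 had the largest rise. Its log2 signal was 8.66, 8.005 and 8.03 on the 3 intact arrays, none of which was above the blank spots, and 11.24, 13.62 and 13.09 on the 3 bed arrays of day 15. All bed arrays lay above all intact arrays, and bed replicate 1 was the lowest of them. The bed mean of 12.65 ± 1.25 (SD, n = 3) was at least 9.67-fold above intact skin, with a fitted log2 difference of 4.42 (SE 0.48, limma adjusted p = 1.43e-05). On scan day 2, the one day on which both tissues were scanned, bed replicate 1 was 3.22 above the 2 intact arrays. With scan day as a block the difference was 4.203 (adjusted p = 0.000649). Since no intact array measured the probe, the size of these log2 differences is uncertain. The same probe had a mean of 9.77 ± 0.48 in the bed at day 2, 13.61 ± 0.85 at day 6 and 10.93 ± 0.28 in the day 15 edge, which was at least 2.94-fold above intact skin (limma adjusted p = 0.00197). The day 15 bed was above the day 2 bed by 2.87 (SE 0.48, adjusted p = 0.00116), and its difference from the day 6 bed, -0.96, did not pass the threshold (SE 0.48, adjusted p = 0.463).

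Probe M200001490 was next. It read 9.24, 9.94 and 9.23 in intact skin, where 2 of the 3 arrays measured it, and 12.01, 12.38 and 13.77 in the day 15 bed. The lowest bed array was more than 2 log2 units above the highest intact array. The difference of means was 3.25 (SE 0.50, limma adjusted p = 0.000246), and with scan day as a block it was 2.81 (adjusted p = 0.00696). No fold is given, since not all intact arrays measured the probe. On scan day 2 bed replicate 1 was 2.42 above intact skin. The bed means of this probe were 11.01 ± 0.45 at day 2 and 12.47 ± 1.24 at day 6, and the day 15 edge had 10.09 ± 0.16. From day 2 to day 15 it rose by 1.71 (SE 0.50, adjusted p = 0.0468), and the edge at day 15 differed from intact skin by 0.62, which did not pass (SE 0.50, adjusted p = 0.842).

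M200000679 and M200001509 fell, and in both the 3 bed arrays lay far apart. M200000679 was among the brightest spots in intact skin, with 15.99, 15.89 and 14.65, and read 14.61, 9.46 and 9.67 in the day 15 bed. Intact replicate 1 had 6 of its 8 spots at the ceiling of the scanner, and bed replicate 1 had 7 of 8, so these signals have only a lower limit. Bed replicates 2 and 3 were at least 66.0-fold and 57.1-fold below the intact mean, and no fold is given for replicate 1. The fitted difference of the means was -4.26 (SE 1.12, limma adjusted p = 0.0178), an average over arrays of which 1 lay close to intact skin and 2 far below it.

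For M200000679, the place of replicate 1 below intact skin rested on 1 spot. On that array the spot that was not at the ceiling read 5802. With the median of the spots in place of the mean, replicate 1 had 15.96, within the intact range of 15.02 to 15.99, and the groups overlapped, while the probe was still called (log2 difference -3.95, adjusted p = 0.0417). The call was lost when scan day was a block (-4.12, adjusted p = 0.0823). It was also lost without bed replicate 2 or 3 (adjusted p = 0.0724 and 0.0986) and without intact replicate 1 or 2 (0.0602 and 0.0577).

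M200001509 read 12.03, 12.86 and 12.74 in intact skin and 11.75, 8.41 and 7.20 in the day 15 bed, where replicate 1 alone was above the blank spots. Replicate 1 was 1.73-fold below the intact mean, and no fold is given for replicates 2 and 3, which were below the limit set by the blank spots. The fitted difference of means was -3.42 (SE 0.81, limma adjusted p = 0.0100). The call was lost when scan day was a block (-3.04, adjusted p = 0.0569) and when bed replicate 3 was left out (-2.46, adjusted p = 0.0695). On scan day 2 bed replicate 1 was 1.05 below intact skin.

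In the bed at day 2, M200000679 had 15.55 ± 0.71 and M200001509 had 12.66 ± 0.68, against 15.51 ± 0.75 and 12.54 ± 0.45 in intact skin. Replicates 1 and 2 of the day 2 bed had 7 of 8 spots of M200000679 at the ceiling, so no difference from intact skin is drawn for it there. For M200001509 the difference was 0.12, which did not pass the threshold (SE 0.81). At day 6 the bed arrays again lay far apart, with 9.82, 14.65 and 13.71 for the first and 8.65, 11.19 and 9.32 for the second. Only 1 of the 3 day 6 arrays, replicate 2, measured M200001509, so the size of its spread there is uncertain. The fitted log2 difference between the day 15 and the day 2 bed was -4.30 for M200000679 (SE 1.12, limma adjusted p = 0.0289), with the signals at the ceiling on both sides, and -3.54 for M200001509 (SE 0.81, adjusted p = 0.0133). The day 15 edge had 14.56 ± 0.87 and 11.48 ± 0.49. Its log2 differences from intact skin, -0.95 (SE 1.12, adjusted p = 0.891) and -1.07 (SE 0.81, adjusted p = 0.803), did not pass, and with these errors a fall in the edge is not excluded.

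**Figure D2:**
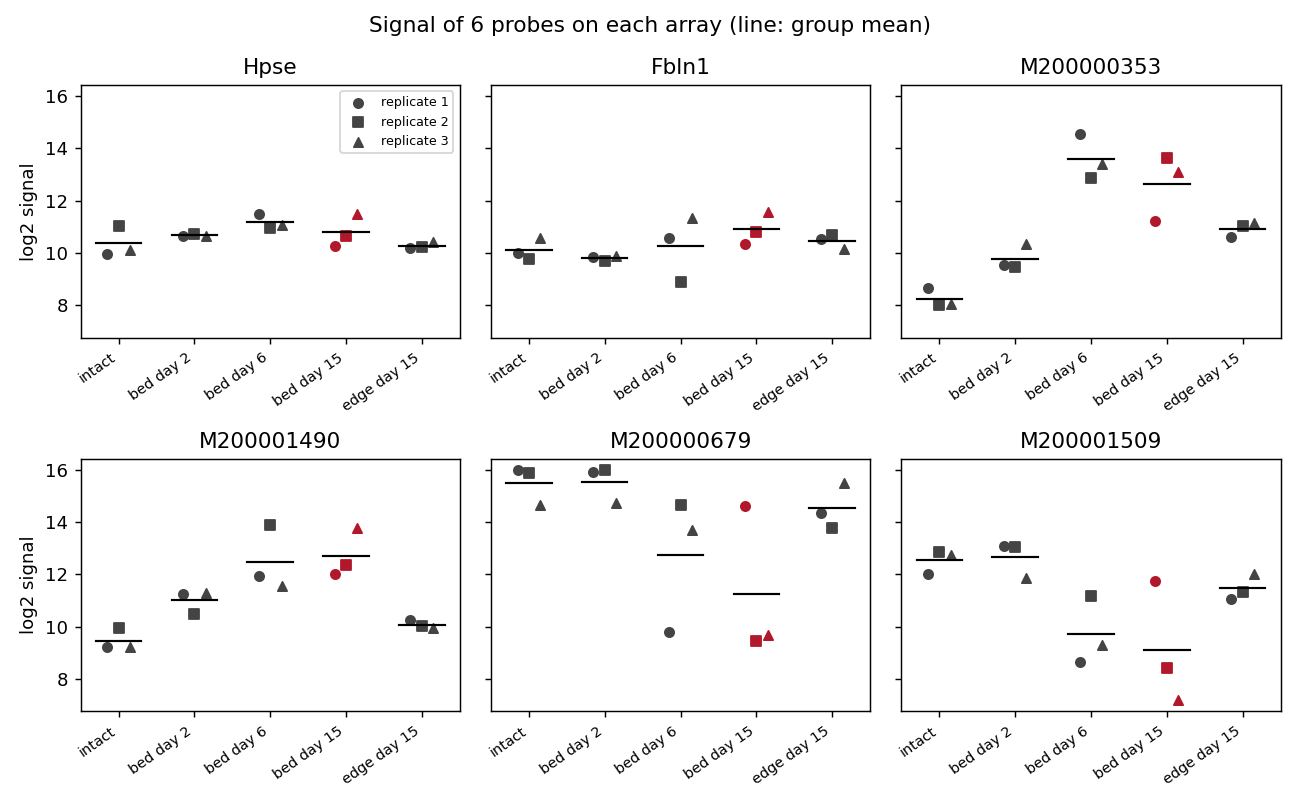
Log2 signal of 6 probes on each array of intact skin, the bed at days 2, 6 and 15 and the edge at day 15, with circle, square and triangle for replicates 1, 2 and 3 and a line for the group mean. Replicate 1 of the day 15 bed (red circle) lies near intact skin for M200000679 and M200001509 and apart from replicates 2 and 3.

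Heparanase did not change past the threshold between intact skin and the late bed. The Hpse probe, for the enzyme that cuts heparan sulfate chains, read 9.95, 11.02 and 10.13 in intact skin and 10.28, 10.66 and 11.51 in the day 15 bed, and was measured on all 6 arrays. The groups overlapped, since the brightest intact array was above 2 of the 3 bed arrays. The log2 difference of the means was 0.45 (SE 0.32, limma adjusted p = 0.408), and bed replicate 1 was 0.09 below the intact mean. Leaving out 1 array moved it between 0.10 without bed replicate 3 and 0.78 without intact replicate 2, and with scan day as a block it was 0.29, none of them past the threshold.

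The Fbln1 probe, for fibulin-1, a glycoprotein of elastic fibres and basement membranes, read 10.01, 9.77 and 10.58 in intact skin and 10.33, 10.81 and 11.56 in the bed. Replicate 1 lay within the intact range and the other 2 bed arrays above it. The log2 difference was 0.78 (SE 0.51, limma adjusted p = 0.355), and it ran from 0.45 without bed replicate 3 (adjusted p = 0.746) to 1.06 without bed replicate 1 (adjusted p = 0.219). Ndst3 encodes an N-deacetylase/N-sulfotransferase that modifies growing heparan sulfate chains. Its probe was not above the blank spots on any array of either group, and no level is given for it. The 75 probes with a public identifier, among them these 3, held 43 tested ones, of which 2 were called higher and 1 lower (6.98%, against 12.0% of all tested probes). The absolute log2 differences of the called ones ran from 2.00 to 2.60.

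The 3 arrays of the day 15 bed were less alike than those of intact skin. Across the 974 tested probes, which are not independent replicates, they correlated with each other at r of 0.846 for replicates 1 and 2, 0.770 for 1 and 3 and 0.827 for 2 and 3, and the intact arrays at 0.925, 0.926 and 0.930. The median SD over the 3 arrays of a group was 0.53 in the day 15 bed and 0.38 in intact skin. Over the 7 groups it ran from 0.27 in the day 15 edge to 0.60 in the day 6 bed. The median SE of a probe's spots within an array was between 0.0771 and 0.112 on the day 15 bed arrays.

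Replicate 1 of the day 15 bed was nearer to the early bed than to its own group. It correlated at 0.930 with the mean of the day 2 bed, at 0.890 with that of the day 6 bed, at 0.845 with the mean of the other 2 day 15 arrays and at 0.856 with intact skin. Replicate 2 correlated best with the rest of its own group, at 0.889, closely followed by the day 6 bed, at 0.885, and the day 2 edge, at 0.883. Replicate 3 correlated best with the day 6 bed, at 0.841, beside 0.832 with the rest of its own group. Its correlations with intact skin, at 0.712, and with the day 2 bed, at 0.713, were the lowest and nearly equal. Replicate 1 was scanned on another day than replicates 2 and 3, and had the most probes above the blank spots of all 21 arrays, so the scan day and the sample cannot be told apart in it.

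Over the called probes, the medians of replicate 1 lay on the same side of intact skin as those of replicates 2 and 3. The 54 higher probes had a median log2 difference from the intact mean of 1.45 on replicate 1, 1.37 on replicate 2 and 1.88 on replicate 3. For the 63 lower probes the medians were -1.47, -1.59 and -2.18. Replicate 1 lay within the intact range for 3 of the 117 probes, against 400 of all 974 (41.1%). These 3 arrays chose the called probes, so the medians are a description. Against the 2 intact arrays of its own scan day, replicate 1 had medians of 1.35 for the higher probes and -1.46 for the lower ones.

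In a small set of falls replicate 1 lay apart from the other 2 bed arrays. In 6 of the 63 lower probes replicate 1 was less than 1 log2 unit below the intact mean while replicates 2 and 3 were both more than 2 below it, and M200000679 and M200001509 are among them. Of the 54 higher probes 1 showed the mirror image. Over all 974 tested probes, 11 set replicate 1 apart from both other arrays in this way, in either direction, 4 set replicate 2 apart and 2 replicate 3.

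**Figure D3:**
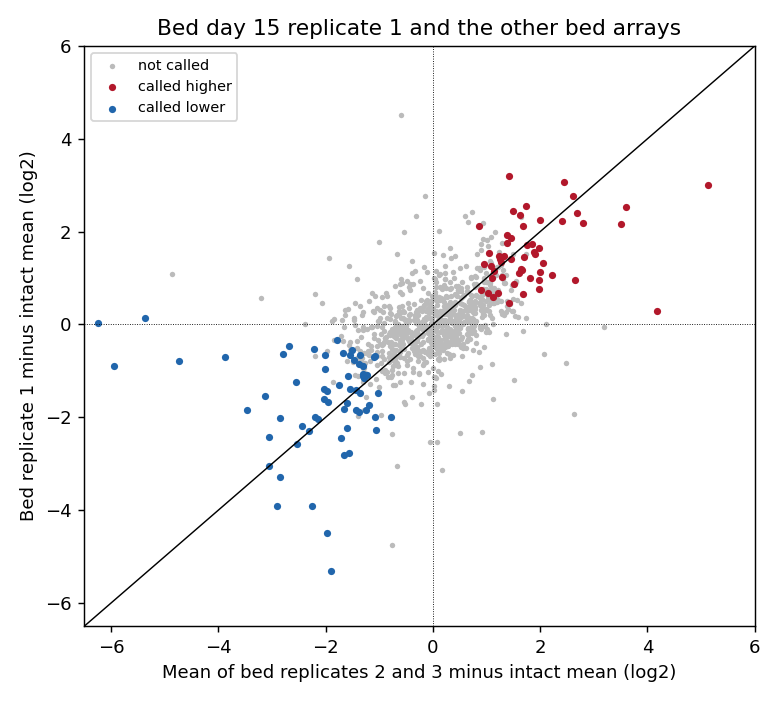
Log2 difference from the intact mean of each tested probe in the mean of bed replicates 2 and 3 (x axis) and in bed replicate 1 (y axis), with the line of equal difference. Most called probes lie near the line, and a few called lower ones at the left have values near 0 on replicate 1.

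Without replicate 1, 135 of 949 tested probes were called (14.2%), 60 higher and 75 lower. Of these, 95 were among the 117, and 40 were called in its absence alone, 16 higher and 24 lower. Another 22 were called with replicate 1 alone, 10 higher and 12 lower. The count fell to 70 without bed replicate 3 and to 50 without intact replicate 3. With scan day as a block, 49 probes were called (5.03%), 24 higher and 25 lower, of which 46 were among the 117. For the 117, the median absolute log2 difference was 1.54 with the block and 1.64 without it. The median SE of all tested probes was 0.478 with it and 0.412 without.

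The 54 higher probes had a median log2 difference from intact skin of 0.84 in the day 2 bed, 1.33 in the day 6 bed, 1.58 in the day 15 bed and 0.37 in the day 15 edge. The 63 lower ones had -0.94, -1.66, -1.72 and -0.55. All these comparisons share the 3 intact arrays, and the probes were chosen by their day 15 values, so the medians are set side by side with no test.

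**Figure D4:**
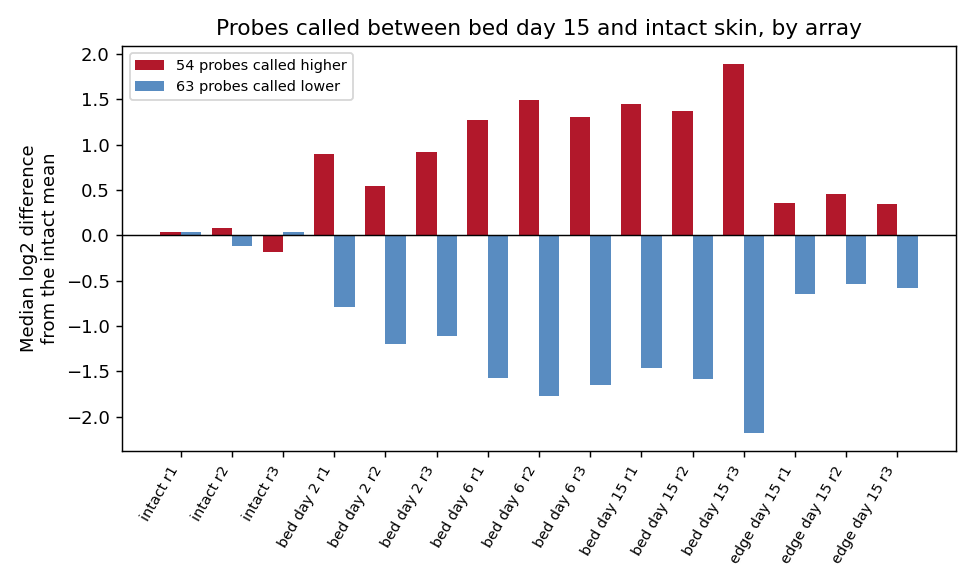
Median log2 difference from the intact mean, on each array of 5 groups, over the 54 probes called higher (red) and the 63 called lower (blue) between bed day 15 and intact skin. The bars of the 3 day 15 bed arrays range from 1.37 to 1.88 and from -1.47 to -2.18, and those of the day 15 edge stay between 0.45 and -0.65.

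Tested directly, the day 15 bed differed from the day 6 bed at few probes. At an adjusted p below 0.05, 7 of 974 were called (0.719%), 3 higher at day 15 (0.308%) and 4 lower (0.411%), and 114 passed an unadjusted 0.05. In all 7 the arrays of the 2 days did not overlap, against 95 of all 974 (9.75%). The split was 4 higher and 1 lower when arrays were scaled to their median, 2 and 1 when scaled to the 75th percentile of the probes that all arrays measured, and 3 and 2 in the deposited table. Among other settings, the probe with the second largest rise lost its call in 2 of 22, and the third rise and the 4 falls in 3 to 13 of 21 or 22.

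The largest of these rises belonged to a probe that all intact and all day 15 arrays measured, and none of the earlier bed arrays. Its log2 signal was 11.59, 10.32 and 9.60 in intact skin. At day 15 it read 12.90, 12.86 and 13.52, above every intact array and with replicate 1 in the midst of its group. The day 15 bed was at least 10.3-fold above the day 6 bed (limma adjusted p = 1.43e-06), and it exceeded intact skin by 2.59 on the log2 scale (SE 0.38, adjusted p = 0.000162). Intact skin was at least 2.97-fold above the day 2 bed (adjusted p = 0.000692) and at least 1.72-fold above the day 6 bed (adjusted p = 0.0152). The day 15 edge had 10.71 ± 0.22. The call between days 15 and 6 held in all 21 other settings tried that kept the probe (adjusted p from 1.02e-06 to 0.00252).

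The second rise was that of a probe with 12.16, 12.12 and 11.58 in intact skin, 13.04, 12.68 and 13.12 at day 6 and 14.11, 15.14 and 15.76 at day 15. It rose by 2.06 from day 6 (SE 0.36, limma adjusted p = 0.00652) and was 3.05 above intact skin (SE 0.36, adjusted p = 2.34e-05). The third rose by 1.55 from day 6 (SE 0.35, adjusted p = 0.0395), to a day 15 mean of 11.08 ± 0.28 against 9.21 ± 0.39 in intact skin. Only 1 of the 3 day 6 arrays and 1 of the 3 intact arrays measured it, so the size of both differences is uncertain. All 3 day 2 arrays measured it, with 10.13 ± 0.19, and its difference between days 15 and 2, 0.95, did not pass (SE 0.35, adjusted p = 0.103).

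Of the 4 probes that were lower at day 15 than at day 6, 3 had been above intact skin at day 6 past the threshold. One had 11.35, 11.39 and 11.69 in the day 6 bed and 9.30, 9.89 and 9.70 at day 15, against 10.28, 9.61 and 9.02 in intact skin. It fell by 1.84 from day 6 (SE 0.36, limma adjusted p = 0.0151), and its day 15 mean differed from that of intact skin by -0.01 (SE 0.36, adjusted p = 0.991). Only 1 of the 3 intact arrays measured this probe, so the difference from intact skin is uncertain, and no return to the intact level is read from it. Another was brightest at day 2, with 15.23 ± 0.44, and had 13.50 ± 0.18 at day 6, 11.20 ± 1.07 at day 15 and 12.22 ± 0.76 in intact skin. It fell by 2.30 from day 6 (SE 0.53, adjusted p = 0.0462). Of the remaining 2, the first had a log2 difference of -1.48 from day 6 (SE 0.33, adjusted p = 0.0395). No intact array and 2 of the 3 day 15 arrays measured it. The day 15 bed was called above intact skin (adjusted p = 0.0397), and no fold is given, since not all day 15 arrays measured the probe. No day 15 or intact array measured the second, and the mean of the day 6 bed was at least 4.63-fold above the day 15 bed (adjusted p = 0.0385). Its day 6 arrays lay far apart, with 10.09, 13.36 and 10.47 (SD 1.79), so the size of this bound rests largely on replicate 2. Leaving out 1 array gave adjusted p from 0.0197 to 0.0981.

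Between the day 15 and the day 2 bed, 65 of 974 probes were called (6.67%), 31 higher at day 15 (3.18%) and 34 lower (3.49%), with a median log2 difference of 1.99 and -1.92. When arrays were scaled to the 75th percentile of the probes that all arrays measured, the split was 39 higher and 20 lower. Of the 31 higher probes 17 were not above the blank spots on any day 2 array, so the size of their differences is uncertain. The share over all tested probes was not counted, and 17 of 31 is not read as a trait of these probes. Against the day 2 mean, the 31 probes had a median difference of 1.15 on day 15 replicate 1, and of 2.71 and 2.75 on replicates 2 and 3, and the 34 lower ones of -0.93, -2.34 and -2.48. Replicate 1 was thus the nearest of the 3 to the day 2 bed in these medians, and without it 124 probes were called. Without bed day 15 replicate 2 or 3 the count was 16 or 23, and without day 2 replicate 1, 2 or 3 it was 29, 21 or 39.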

How the data were processed

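From each sample, 500 ng of total RNA was amplified, per the labels' protocols, labelled with Cy3 and hybridised to 1 array. The authors deposited spot intensities on a linear scale, and per the file headers these came from image analysis (software version 4.1, automatic segmentation) of a scan at 532 nm. The deposited spot flags of 0 to 3 are of another type, and what they mean is not given in the sources used here. A further table that the authors deposited gives every probe a scaled log score, which was rebuilt from the spot signals (log, median 1, SD 0.2 in each array, no background subtraction) to within 0.00119, and its column medians ran from 0.999 to 1.00.

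Intensities were background-corrected (limma 3.58.1 normexp, offset 50, R 4.3.3), the mean log2 value of a probe's spots without flag 1 was taken, and arrays were quantile normalized, which hides any shift shared by most transcripts. A model with 7 group means over all 21 arrays (14 residual degrees of freedom) was moderated by empirical Bayes, with two-sided p-values adjusted over 974 probes. The model takes the spread of a probe as equal in all groups. The median SD ran from 0.27 in the day 15 edge to 0.60 in the day 6 bed, with 0.53 in the day 15 bed. For probes that varied more in the bed than elsewhere, the SE and p-value are therefore too small. The p-values reflect only how these samples vary, which may be technical. The 3 scan days, from the image names, held intact replicate 1 (day 1), intact replicates 2 and 3 and bed replicate 1 (day 2) and bed replicates 2 and 3 (day 3). In simulated data with 200 changed probes, 31.9% of 2-fold and 86.4% of 4-fold changes between bed day 15 and intact skin were recovered, with 4.31% false calls, over the 974 probes. The simulated noise was normal, independent between arrays and of the same spread in all groups for a given probe. It held no effect of scan day, no scanner ceiling and no limit by blank spots, so these rates need not hold for the real arrays. Same-numbered bed day 15 and intact arrays showed no clear likeness (correlations of deviations of 0.02, 0.02 and -0.22). With 3 arrays a group this cannot exclude a pairing, and the bed and edge of the same day were not compared in this way.

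Probes were named by their RefSeq accession through a RefSeq gene table (3 of 1687 matched). All probes with a symbol were described, and of those without one the 2 largest called rises and 2 largest called falls whose groups did not overlap and which were measured on all 3 arrays of the brighter group. The probes between days 15 and 6 are described without identifiers. The comparison, the rule and the gene lists were chosen with earlier results of these data known, and the lists could not be tested. Precision is limited by having 3 arrays a group.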

Additional observations from a re-analysis of the deposited data

Results flagged for a closer look

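The difference between bed and intact skin itself differed between time points, tested as the difference between 2 bed days (limma, adjusted p below 0.05). It differed between days 15 and 6 at 7 probes and between days 15 and 2 at 65. Of the probes given by identifier, M200000353 was 2.87 higher on the log2 scale in the day 15 bed than in the day 2 bed, with all 3 arrays above, and M200001490 was 1.71 higher. M200000679 had a log2 difference of -4.30 and M200001509 of -3.54 between these days, the first with 2 day 2 arrays at the ceiling of the scanner, and in both the day 15 replicate 1 was the nearest of the 3 to the day 2 arrays.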

How the results depend on the processing

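Of the 22 other settings, 16 kept the count against intact skin within 1.5 times of 117. The count was 33 among the 323 probes measured on all arrays, 76 without the 3 dimmest arrays (intact replicate 2 and day 2 and 15 edge replicates 3), 49 with scan day as a block and 28 in a fit of the 6 compared arrays alone, and leaving out 1 array gave 50 to 135. Between days 15 and 6, where 7 were called, it was 4 with a normexp offset of 10, 3 with the 75th percentile over probes measured on all arrays, 1 among those probes, 2 with array weights, 3 with the replicate block and 1 with only the arrays compared, and 5 to 26 leaving out 1 array. It was 26 without day 15 replicate 1, and 12 without day 15 replicate 3 or day 6 replicate 3. Between days 15 and 2, where 65 were called, it was 43 without a filter, 15 among probes measured on all arrays, 7 with only the arrays compared, and 16 to 124 leaving out 1 array.

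With the replicate block 104 probes were called against intact skin and 47 between days 15 and 2. The causes of these changes were not tested. The calls of M200000353 and M200001490 held in all 21 settings that kept them (adjusted p up to 0.0129). M200000679 lost its call in 7 of 22 and M200001509 in 3 of 21, besides those in the text without the 3 dimmest arrays (M200000679, adjusted p = 0.0657) and with only the 6 arrays (0.0848 and 0.0850). No log2 difference reversed. Spots of flag 0 alone could not be fitted, since 8 probes had one on every array.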
